A study of Mus musculus with 4 samples.

Results

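The genes described here encode proteins that neutrophils make and store. They are 8 of the 18820 genes with a symbol of their own on the array, namely Ngp, S100a8, S100a9, Ltf, Camp, Mpo, Mmp8 and Csf3r. They were chosen by name with earlier results of these liver samples known, in particular their levels and their ratios between pools. Each was read by 1 probe set annotated to that symbol only, so no averaging between probe sets was needed for the members.

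Liver RNA came from male C57Bl/6J mice aged 16 to 17 weeks. All had eaten a semi-synthetic diet with palm oil for 6 weeks, carried a permanent catheter in the cecum, were fasted for a few hours on the morning of the experiment, and were conscious during the infusion. One group received phosphate-buffered saline, and the others received 0.3 M sodium [1-13C]acetate, sodium [2-13C]propionate or sodium [2,4-13C2]butyrate for 6 h, with a flow of 0.2 ml/h that delivered 2.4 mmol/h/kg of each acid. Equal amounts of RNA were pooled within a group before hybridization, from 6 mice each for control, acetate and propionate and from 4 mice for butyrate, and each of the 4 pools was measured on 1 array. With 1 array per group there is no spread between replicates, so no value below has a replicate error and no difference has a test. A single liver weighed more in the butyrate pool than in the others.

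Neutrophils are short-lived white cells that are formed in bone marrow and kill microbes with proteins held in granules. The granules fill in sequence as the cell matures: primary granules with Mpo and serine proteases are made first, secondary granules with Ltf, Camp and Ngp later, and gelatinase granules after those. Much granule protein mRNA is made in marrow precursors and declines before the cell enters blood, whereas mRNA of S100a8 and S100a9 stays abundant in circulating neutrophils. In liver, neutrophils pass through the sinusoids with the blood, so bulk liver RNA holds a small contribution from them.

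The label was compared with 13 genes that mark neutrophils, the 8 members among them. Of the 12 measured, 8 lay above array background in all 4 pools, 3 in some (Camp, Mmp8 and Mpo) and 1 in none. Of the 4 outside the members, Elane, Cxcr2 and Mmp9 lay above it in all pools and Retnlg, a secreted protein of mature neutrophils, in none (3.69 to 4.00 on the log2 scale). Cxcr2 (4.46 to 4.84) and Mmp9 (4.47 to 4.65) lay close to it. Ly6g was not analysed here. Array background was taken from 1155 olfactory and vomeronasal receptor genes, which liver does not use: their median level was 2.85 to 2.86 and their 95th percentile was 4.15 to 4.18 on the log2 scale. A level over that percentile on the same array is called above background. In bulk RNA, fewer cells of a type and less RNA per cell cannot be told apart.

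The bases before the annotated starts of 5 members are shown because they stand for 3 roles, secondary granule (Ngp and Ltf), cytosol (S100a8 and S100a9) and primary granule (Mpo). Sequences are RefSeq's (GRCm38.p6), 5′ to 3′ on the strand of the gene, the 250 bases before the start; all 8 members matched the table. Capitals mark letters that match a motif of the C/EBP factors (TTNNGNAAT, both strands), of PU.1 (GAGGAA, both strands) or a TATA box (TATAAA, strand of the gene). C/EBP factors and PU.1 are transcription factors of the granulocyte lineage, and the motifs were chosen after the sequences had been seen.
Ngp: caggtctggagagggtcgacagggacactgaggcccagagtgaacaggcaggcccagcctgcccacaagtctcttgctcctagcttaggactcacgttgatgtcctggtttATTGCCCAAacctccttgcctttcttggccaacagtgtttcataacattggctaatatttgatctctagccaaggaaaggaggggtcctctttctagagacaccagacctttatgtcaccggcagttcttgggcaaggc
Ltf: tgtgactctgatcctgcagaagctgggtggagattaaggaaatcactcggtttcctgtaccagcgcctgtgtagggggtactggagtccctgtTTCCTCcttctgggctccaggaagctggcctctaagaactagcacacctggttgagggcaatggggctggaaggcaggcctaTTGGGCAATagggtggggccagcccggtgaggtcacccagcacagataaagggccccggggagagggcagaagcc
S100a8: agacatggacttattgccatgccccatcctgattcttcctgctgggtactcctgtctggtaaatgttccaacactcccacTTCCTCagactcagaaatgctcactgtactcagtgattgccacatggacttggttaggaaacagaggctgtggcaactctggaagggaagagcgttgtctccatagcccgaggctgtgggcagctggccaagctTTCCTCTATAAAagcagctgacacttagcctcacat
S100a9: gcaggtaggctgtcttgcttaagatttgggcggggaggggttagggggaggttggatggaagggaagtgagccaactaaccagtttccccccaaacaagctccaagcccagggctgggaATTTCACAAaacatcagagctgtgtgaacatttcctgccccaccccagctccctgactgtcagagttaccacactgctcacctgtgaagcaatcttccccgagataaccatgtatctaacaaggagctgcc
Mpo: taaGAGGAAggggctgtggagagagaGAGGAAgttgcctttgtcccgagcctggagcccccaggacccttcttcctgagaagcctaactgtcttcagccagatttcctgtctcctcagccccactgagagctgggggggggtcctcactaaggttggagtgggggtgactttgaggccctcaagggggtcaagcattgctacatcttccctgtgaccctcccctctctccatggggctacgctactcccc
These windows are chr9:110419558-110419807 (plus strand) for Ngp, chr9:111019042-111019291 (plus) for Ltf, chr3:90668821-90669070 (plus) for S100a8, chr3:90695722-90695971 (minus) for S100a9 and chr11:87793534-87793783 (plus) for Mpo. The C/EBP letters were found in 3 of the 8 members (Ngp, S100a9 and Ltf) and in 10.2% of 32851 promoter windows of the same length. Ngp and Ltf held the same 9 letters, TTGGGCAAT, 139 and 75 bases before the start at their first base and on opposite strands; 43 windows of all, 0.131%, held them. The PU.1 letters were found in 5 of 8 members (S100a8, Ltf, Mpo, Mmp8 and Csf3r) and in 23.3% of all windows. The TATA letters were found in 1 member, S100a8, where they abut a PU.1 match, and in 7.59% of all windows. A match is a run of letters and not a measured binding site. By chromosome, 4 members lie on chromosome 9 (Ngp, Ltf, Camp and Mmp8), 2 on chromosome 3 (S100a8 and S100a9), 1 on chromosome 11 (Mpo) and 1 on chromosome 4 (Csf3r).

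All 8 members had their highest measured level in the butyrate pool and their lowest in the acetate pool. For Camp and Mmp8 the 3 lower pools were not above array background, so the order of those pools is not read. Among all 18820 genes, butyrate was highest for 26.2%, acetate lowest for 22.6%, and both held for 9.01%. The members had been chosen with these pools' values known, so the shares describe the choice and are no support for it. The members differed in how far apart the pools lay and in which pool stood off from the control.

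**Figure D1:**
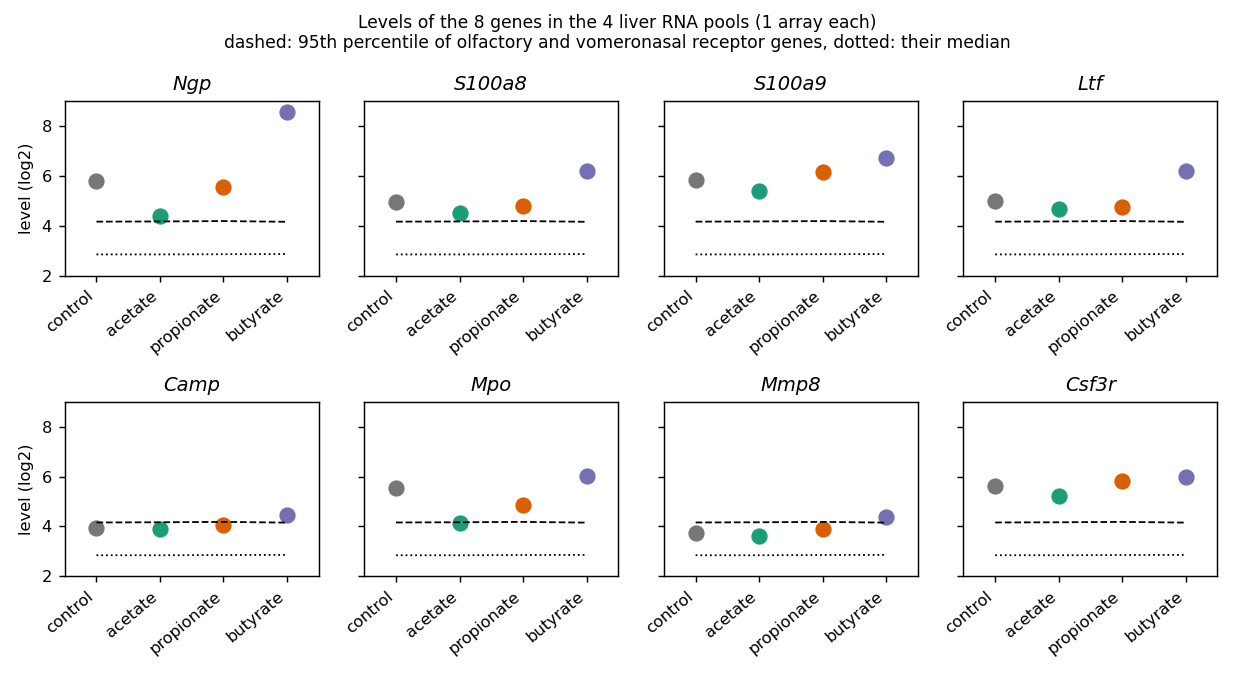
Levels (log2) of the 8 genes on the 4 arrays, 1 point per pool, with the 95th percentile (dashed) and the median (dotted) of the receptor genes that mark array background. Ngp reached 8.54 in the butyrate pool, Camp and Mmp8 were above the dashed line in that pool alone, and Mpo lay at the line in the acetate pool.

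Of the secondary granule genes, Ngp, which encodes a cystatin-fold protein of these granules, had the widest range of any member. Its log2 level was 5.79 in the control pool, 4.40 with acetate, 5.54 with propionate and 8.54 with butyrate. The butyrate pool stood far above the other 3, the acetate pool lay below them, and control and propionate were close together. The butyrate pool was 6.74-fold above control, the third highest ratio of 18820 genes, and the acetate pool was 2.62-fold below control. The lowest and highest pools differed 17.7-fold. Ngp stayed above array background in every pool, by 0.23 on the log2 scale with acetate and by 4.39 with butyrate.

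Ltf encodes lactoferrin, the iron-binding protein of secondary granules. It stood at 4.99 in control, 4.65 with acetate, 4.73 with propionate and 6.20 with butyrate. Here the butyrate pool alone stood apart, 2.33-fold above control, and the other pools spanned 0.34 on the log2 scale. The ratios of acetate and propionate to control were -0.34 and -0.26.

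Camp, the precursor of the antimicrobial peptide cathelicidin, and Mmp8, the neutrophil collagenase, lay near array background. Camp stood at 3.96, 3.88, 4.07 and 4.47 in the control, acetate, propionate and butyrate pools. Mmp8 stood at 3.73, 3.62, 3.88 and 4.36 in the same order. Both were above background in the butyrate pool only. The measured ratio of butyrate to control was 1.43-fold for Camp and 1.55-fold for Mmp8. Against the background level in place of the control value, Camp was at least 1.24-fold and Mmp8 at least 1.15-fold higher, so the passage of 1.5-fold by Mmp8 rests on a control value below background.

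S100a8 and S100a9 encode the subunits of calprotectin, a calcium- and zinc-binding complex of the neutrophil cytosol that monocytes also make. S100a8 stood at 4.96 in control, 4.52 with acetate, 4.78 with propionate and 6.19 with butyrate. S100a9 stood at 5.83, 5.38, 6.16 and 6.69. Both were highest with butyrate, 2.33-fold above control for S100a8 and 1.82-fold for S100a9. In the propionate pool S100a8 was measured below control (log2 ratio -0.18) and S100a9 above it (0.33). Both gaps to control were within 0.36, which is 2 SDs of the receptor genes' ratios for these pools. With acetate the ratios were -0.45 and -0.44, both short of 1.5-fold.

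Mpo encodes myeloperoxidase, the heme enzyme of primary granules that makes hypochlorous acid. Its levels were 5.53 in control, 4.12 with acetate, 4.86 with propionate and 6.02 with butyrate. Unlike the secondary granule members Ngp and Ltf, Mpo differed more from control in the acetate pool than in the butyrate pool. So did Csf3r, with log2 ratios of -0.39 and 0.34, and Lcn2 of the wider secondary granule list, with -0.21 and 0.013. For Mpo the acetate pool was at least 2.58-fold below control, because the value there was not above background. The propionate pool had a log2 ratio of -0.68 to control, which made Mpo the only member past 1.5-fold with that acid. Against the mean of the other 3 pools that ratio was -0.37, and Ngp (-0.70) was then the only member past 1.5-fold with propionate. The butyrate pool was 1.40-fold above control, short of 1.5-fold, but its log2 ratio to the mean of the other 3 pools was 1.18, past it.

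Csf3r encodes the receptor for granulocyte colony-stimulating factor, which drives neutrophil formation. It had a narrow range, from 5.23 with acetate through 5.62 in control and 5.82 with propionate to 5.96 with butyrate. No pool passed 1.5-fold against control. The ratios were -0.39, 0.20 and 0.34 for acetate, propionate and butyrate.

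Array noise was not measured at the higher levels of most members. The receptor genes that mark background gave a scale for it at their own low level, though not for the spread between mice. Their log2 ratios to control had an SD across genes of 0.16 with acetate, 0.18 with propionate and 0.17 with butyrate. Between acids, the SD was 0.16 for propionate against acetate and 0.18 for butyrate against propionate. Neighbouring pools in the order of levels were set against 2 SDs of the receptor genes' ratios for the same 2 pools. Butyrate exceeded the next highest pool by more than that for 7 of the 8 members as measured, Csf3r being the exception (0.14 above propionate), and for 5 of 8 once the background threshold replaced values below it, which leaves out Camp and Mmp8. Acetate lay below the next lowest pool by more than that for 4 of 8 (Ngp, S100a9, Mpo and Csf3r). Control and propionate, the middle pools, were within it for 7 of 8, Mpo being the exception, though for Camp and Mmp8 both of these values were below background. Such gaps were not counted over all genes, and the members were chosen with these pools' values known. Nothing is therefore read from the counts.

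Against control, 5 of 8 members were at least 1.5-fold higher with butyrate (0.58 on the log2 scale), namely Ngp, S100a8, Ltf, S100a9 and Mmp8, and none was lower. With the background threshold in place of lower values the count was 4, without Mmp8, and against the mean of the other 3 pools it was 6. Among all 18820 genes, 0.728% were higher and 0.616% lower by that amount as measured against control. No such share was counted with the threshold in place or against the other 3 pools. The median log2 ratio of the 8 was 0.74, beside -0.0029 for all genes. With acetate, 0 of 8 were higher and 2 lower, Ngp and Mpo, where 0.696% of all genes were higher and 0.494% lower; all 8 ratios were below 0, with a median of -0.42 beside 0.0020 for all genes. With propionate, 0 were higher and 1 lower, where 0.776% and 0.489% of all genes were; 4 ratios were above 0 and 4 below, with a median of -0.033 beside -0.0075. The members were chosen with these contrasts known, so nothing is read from the counts, and the 3 comparisons share the control array.

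**Figure D2:**
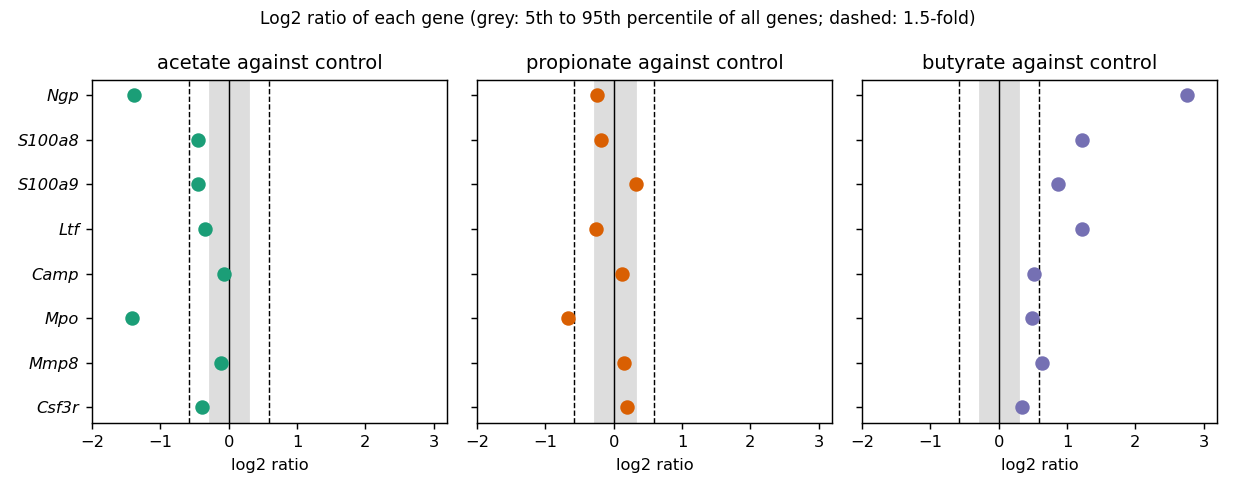
Log2 ratio of each member to the control pool, 1 panel per acid; the grey band runs from the 5th to the 95th percentile of all 18820 genes and dashed lines mark 1.5-fold. With butyrate every member lies right of 0, up to 2.75 for Ngp; with acetate every member lies left of 0, down to -1.41 for Mpo; with propionate Mpo alone passes a dashed line.

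The acids differ in the length of their carbon chain and were infused at equal molar rates over equal times, so their pools can be set side by side. There were 3 pairs, which share their arrays, with 1 array for each acid and hence no interval for any difference. Butyrate exceeded acetate by at least 1.5-fold for 8 of 8 members as measured, where 0.914% of all genes were that much higher and 0.956% that much lower. Camp and Mmp8 were not above background with acetate, which leaves at least 1.24-fold and 1.14-fold for them and 6 of 8 members past 1.5-fold. The measured log2 ratios ran from 0.59 for Camp to 4.14 for Ngp, and the median was 1.43. Butyrate exceeded propionate by at least 1.5-fold for 4 members, Ngp (8.01-fold), Ltf (log2 ratio 1.48), S100a8 (1.41) and Mpo (1.16), and for none the reverse held, where 0.425% of all genes were higher and 0.845% lower. Csf3r had the smallest ratio of that pair, 0.14. Propionate exceeded acetate by at least 1.5-fold for 4 members, Ngp (1.14), S100a9 (0.77), Mpo (0.73) and Csf3r (0.59), and none was lower, where 0.383% of all genes were higher and 0.213% lower. Ltf had the smallest ratio of that pair, 0.081.

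Genes linked to neutrophils were grouped by role into 8 lists of 85 genes, 76 of them measured and 68 of these outside the 8 members. Of the 68, 10 were at least 1.5-fold higher and 0 lower than control with butyrate, where 0.728% and 0.616% of all genes were. With acetate 1 was higher and 3 lower (0.696% and 0.494% of all genes), and with propionate 5 and 0 (0.776% and 0.489%). These shares also stand beside the list counts below. The 68 include 17 signals for recruitment and growth, which supply 3 of the 10. The lists were chosen with earlier results known, so nothing is read from the counts. Of all 76, 48 were above array background in all pools, 8 in some and 20 in none. In each pool, 68.8% to 69.6% of all genes were above it. The medians of the 68 were 0.13 with butyrate, -0.016 with acetate and 0.12 with propionate on the log2 scale.

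Of the 7 measured genes of the primary granule list, 3 were lower by 1.5-fold with acetate (Mpo, Elane and Ctsg), 1 with propionate (Mpo) and 0 with butyrate, and none was higher with any acid. Beside Mpo, Elane (neutrophil elastase) stood at 5.50, 4.77, 4.97 and 5.64 in the control, acetate, propionate and butyrate pools. Ctsg (cathepsin G) stood at 4.77, 3.90, 4.26 and 4.93. Both serine proteases had the measured order of Mpo, with acetate lowest, propionate next, control above it and butyrate highest. Only part of that order passed 2 SDs of the receptor genes' ratios. Propionate lay below control by 0.54 for Elane and 0.52 for Ctsg, past 0.36. Butyrate exceeded control by 0.14 and 0.16, within 0.34. Propionate exceeded acetate by 0.20 for Elane, within 0.33, and by at least 1.06-fold for Ctsg. Elane was 1.66-fold below control with acetate, and Ctsg at least 1.52-fold, since it was not above background there. Prtn3 (proteinase 3) had ratios of -0.30, 0.081 and 0.12 with acetate, propionate and butyrate.

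Of 10 measured genes of the secondary granule list, 4 were at least 1.5-fold higher with butyrate (Ngp, Ltf, Chil3 and Mmp8), 0 with acetate and 0 with propionate, and 1 was lower with acetate (Ngp). Chil3, a chitinase-like protein of myeloid cells, stood at 3.93, 3.48, 3.36 and 4.96 and was above background with butyrate only, at least 1.75-fold over control. Lcn2, which binds bacterial siderophores and which hepatocytes also make in the acute phase, was near 12.8 in control and had ratios of -0.21, -0.18 and 0.013 with acetate, propionate and butyrate. Cd177, a surface protein of neutrophils, had ratios of 0.069, 0.13 and 0.059. The median of the 6 genes outside the members was 0.037, 0.017 and 0.036 for acetate, propionate and butyrate.

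Of the 4 tertiary granule genes, Slc11a1 passed 1.5-fold with butyrate and Adam8 with acetate and propionate, and macrophages also express both. Mmp9 (gelatinase B), the defining enzyme of these granules, had ratios of -0.18, -0.084 and -0.079 with acetate, propionate and butyrate. The metal transporter Slc11a1 stood at 0.45 with propionate and 0.61 with butyrate, and the metalloprotease Adam8 at 0.59, 0.64 and 0.37 with acetate, propionate and butyrate from a control value below background, which leaves at least 1.31-fold and 1.36-fold with acetate and propionate. In the cytosolic and secreted list, 3 of 7 measured genes were higher with butyrate, S100a8, S100a9 and the membrane protein Ifitm6 (0.78), 0 with the other acids, and none was lower.

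Of 6 measured genes of the list that holds the NADPH oxidase, which neutrophils share with macrophages, 2 were at least 1.5-fold higher with butyrate (Rac2 and Cybb), 1 with propionate (Rac2) and 0 with acetate. Rac2, a small GTPase of the complex, had ratios of 0.028, 0.70 and 0.72 with acetate, propionate and butyrate. Cybb, the catalytic subunit, had 0.00905, 0.48 and 0.62, and Ncf1 had 0.13, 0.48 and 0.28. Among 16 measured surface receptor genes, Itgam (0.25, 0.50 and 0.69) and Trem3 (0.30, 0.42 and 0.70) passed 1.5-fold with butyrate and Itgb2 (-0.054, 0.62 and 0.49) with propionate. Trem3 was not above background in control, which leaves at least 1.40-fold with butyrate. Cxcr2, the receptor that draws neutrophils to chemokines, had ratios of -0.19, 0.19 and 0.080.

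Signals that attract neutrophils or drive their growth had no common direction with butyrate, where 3 of 17 were at least 1.5-fold higher and the median was 0.040. Cxcl1, a chemokine that binds Cxcr2, had ratios of 0.37, 0.91 and 0.64 with acetate, propionate and butyrate. Ppbp, a chemokine held in platelets, had -1.02, 0.060 and 0.62. Tnf was above background with propionate only, at least 1.71-fold over control. Csf3, the ligand of Csf3r, had ratios of 0.037, -0.11 and -0.061. Regulators of granulocyte formation stayed near control, with 0 of 9 past 1.5-fold with any acid. Spi1, which encodes PU.1, had ratios of -0.29, 0.15 and 0.28, Cebpa -0.11, -0.29 and -0.16, and Irf8 0.079, 0.24 and 0.26. Cebpe, the C/EBP factor of secondary granule gene transcription, had 0.012, -0.22 and -0.039, and Gfi1 was above background in no pool.

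**Figure D3:**
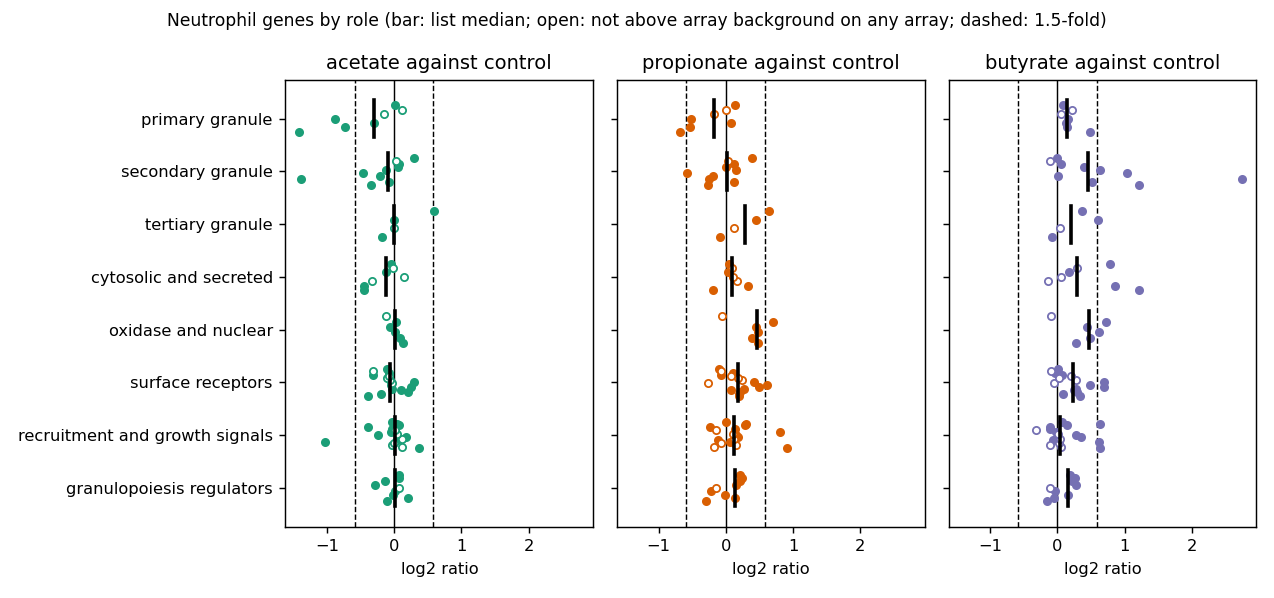
Log2 ratio to control of each measured gene of the 8 neutrophil lists, members included, 1 panel per acid; bars are list medians, open points genes above array background on no array, and dashed lines 1.5-fold. The lowest points with acetate lie in the primary granule list and at Ngp and Ppbp, and the highest with butyrate in the secondary granule and cytosolic lists.

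Markers of other cells differed between the pools beside the members. Hepatocyte markers had a mean level of 13.2 in every pool, with Ahsg at 0.069 and Alb at 0.044 with butyrate; they lie close to the highest value of the arrays, 13.7, so no stability is read from them. All 8 Kupffer cell markers (resident liver macrophages) were above control with butyrate, 4 by at least 1.5-fold, led by Marco (1.40) and Adgre1 (0.76). Their mean level was 8.49, 8.37, 8.84 and 9.16 in the control, acetate, propionate and butyrate pools. Of 5 measured monocyte markers 0 passed 1.5-fold with any acid, their mean level was 4.98, 5.09, 5.13 and 5.02, and Ccr2 stood at 0.11 and Cx3cr1 at -0.095 with butyrate. Of 6 eosinophil and mast cell markers, 5 were above background in no pool, among them Epx, Prg2, Cpa3 (-0.31 with butyrate) and Mcpt4 (0.14). Of 7 measured erythroid markers, 3 were at least 1.5-fold higher with butyrate, Car1 (1.90), Slc4a1 (1.34) and Car2 (0.68), whereas Alas2 stood at 0.14 and Klf1 at -0.095. Epb42 (0.15) and Rhag (0.51) were above background in no pool, so their ratios are not read. The mean level of the 7 was 5.59, 5.46, 5.59 and 6.25 in the control, acetate, propionate and butyrate pools. Lymphocyte markers did not pass 1.5-fold with any acid in 4 B cell and 7 T and NK cell genes, with Nkg7 at 0.50, Cd3e at 0.33, Cd79b at 0.33 and Ms4a1 at -0.16 with butyrate. Of 5 platelet markers, Ppbp was lower with acetate and higher with butyrate, and Treml1 stood at 0.19 with butyrate.

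Other tissues' genes also differed in the pools where the members did. As measured, all 8 intestinal epithelium markers were above control with butyrate, 2 of them by at least 1.5-fold: Muc2, the goblet cell mucin (2.98), and Lypd8, a surface protein of the colon (2.97). The median ratio of the 8 was 0.34 and the smallest 0.013, where 2 SDs of the receptor genes' ratios were 0.34. In control, 6 of the 8 were above background. The mean level of the 8 was 6.21, 6.27, 6.23 and 7.15 in the control, acetate, propionate and butyrate pools, and Cdx2, a transcription factor of gut epithelium, was above background in none. All 8 skeletal muscle markers were at least 1.5-fold lower with butyrate, with a mean level of 4.93 against 7.33 in control, among them Myl1 (-3.15) and Mb (-2.98). Pancreatic acinar markers were lower by at least 1.5-fold in 7 of 8 cases with acetate and 6 of 8 with propionate, with a mean level of 9.64, 8.72, 8.98 and 9.27 in the control, acetate, propionate and butyrate pools. With butyrate Cela3b stood at -0.58 and Cpa1 at -0.46. The part of these cells and tissues in the members' values was not tested.

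**Figure D4:**
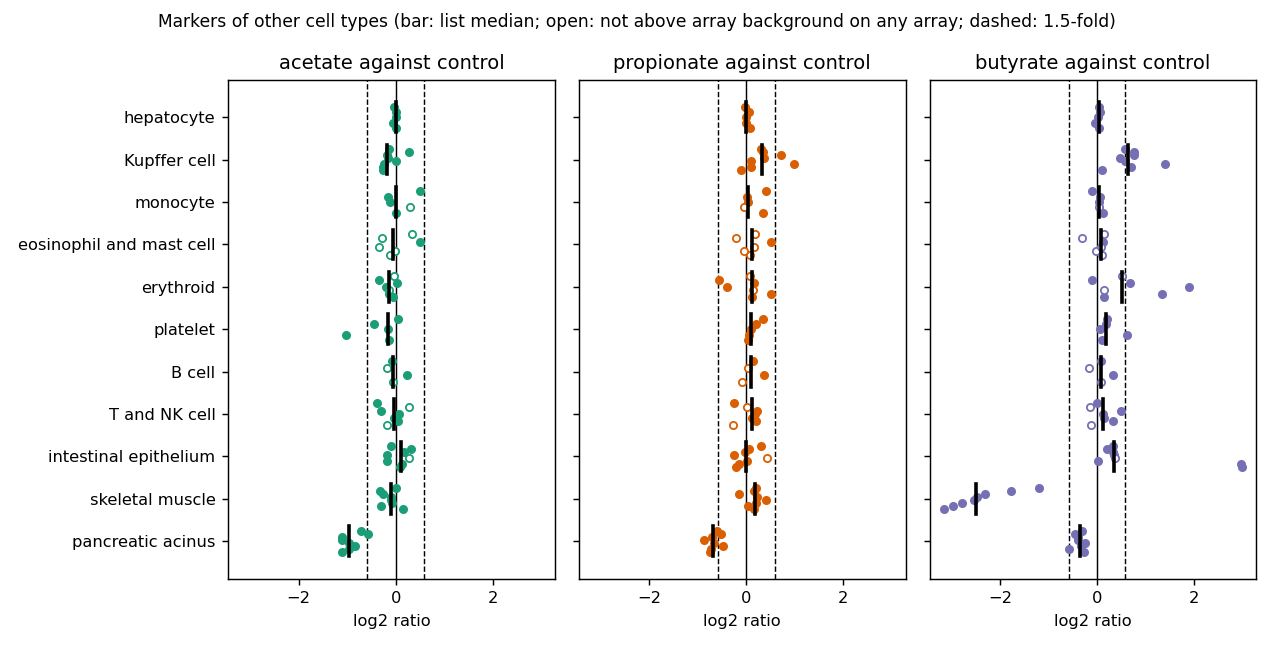
Log2 ratio to control of markers of other cell types, drawn as in the plot of the neutrophil lists. With butyrate, Muc2 and Lypd8 lie near 3 and muscle markers between -3.15 and -1.20; with acetate, acinar markers lie between -1.12 and -0.57.

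The 5 genes whose values over the 4 pools were nearest to those of Ngp held no member. Likeness was the Euclidean distance between 4 log2 values, each gene's own mean subtracted, over 13530 genes above background in at least 1 pool. Values were not scaled, so the width of a gene's range counts as well as the order of its pools. Ngp had a log2 range of 4.14 and the next widest member, Mpo, 1.90. The search therefore does not show that the members differ from Ngp in pool order. The nearest 5 were Clca1 (distance 1.02), a secreted goblet cell protein, Muc2 (1.22), Lypd8 (1.23), 1810065E05Rik (1.26) and Car1 (1.48), a carbonic anhydrase of red cells and colon. A high butyrate value is what the search selects, so it is no result for these genes. Clca1 stood at 4.35, 3.92, 4.28 and 6.65 in the control, acetate, propionate and butyrate pools, and 1810065E05Rik at 3.24, 3.22, 3.45 and 5.69, so that it entered the search through the butyrate pool alone. None had an acetate value as far under control as Ngp, the ratios running from -0.44 for Clca1 to 0.13 for Lypd8 against -1.39. For S100a8 the nearest gene was Ltf (distance 0.13), another member, followed by Mptx1 (0.23), Agr2 (0.30), a protein disulfide isomerase of goblet cells, Chil3 (0.32) and 2610528A11Rik (0.43). With 4 arrays of 1 pool each, such distances describe these pools and nothing further.

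**Figure D5:**
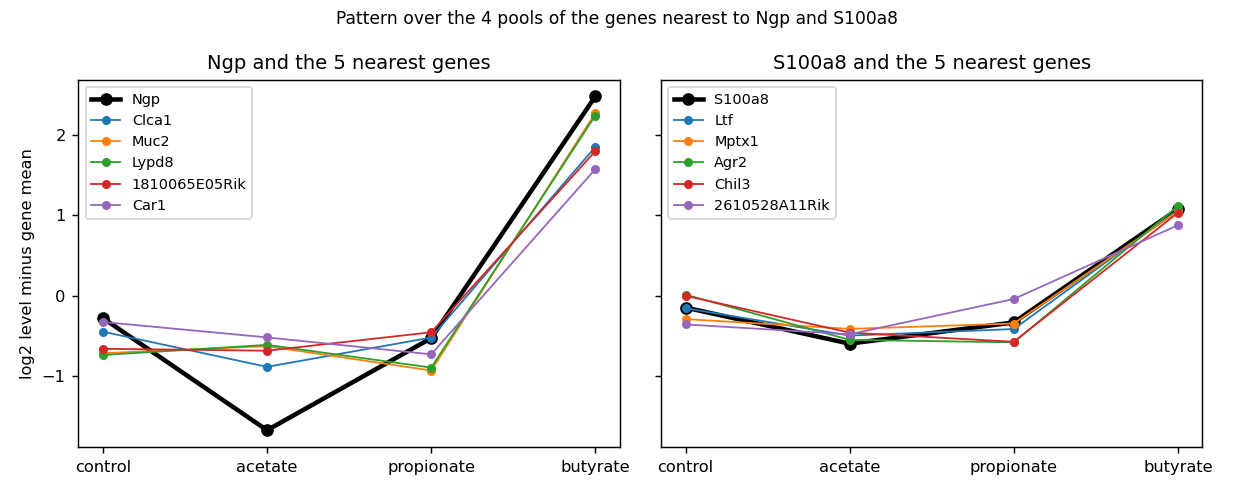
Log2 level minus the gene's mean over the 4 pools, for Ngp (left) and S100a8 (right) in black and the 5 genes nearest to each in colour. The search selects for lines of like shape, so all are highest in the butyrate pool; Ngp lies below its neighbours in the acetate pool.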

How the data were processed

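Pooled liver RNA was hybridized to 1 biotin-labelled array per infusion group, from 500 ng of RNA per mouse pooled and 100 ng of the pool, per the labels' protocols. The authors deposited log2 levels, 1 per probe set and array; RMA (background correction, normalization between arrays and summary of probes) is what the submitters' processing notes name, without settings, and no source used here gives the array design's build. Array medians were 5.11 to 5.12, which hides any shift common to all genes of a pool. GEO's platform annotation gave 1 symbol to 21218 of 35556 probe sets, several to 1881 and none to 12457. Of those with 1 symbol, 21185 matched RefSeq (GRCm38.p6) by Entrez ID. Probe sets of a symbol were averaged to 18820 genes.

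Log2 ratios of 2 arrays were computed with Python 3.11.15 and counted at 1.5-fold, without a p-value; the counting was tested on simulated data. Cyclic loess used limma 3.58.1. Where a value was not above background, the threshold replaced it to give an "at least" fold. The number of arrays limits precision. Members and lists were chosen with earlier results of these data known. Named were all members, 3 genes per neutrophil list and 2 per marker list by largest absolute ratio (with butyrate for markers), the defining genes Elane, Prtn3, Ctsg, Lcn2, Chil3, Mmp9, Cxcr2, Cd177, Retnlg, Cebpe and Gfi1, and the 5 genes nearest to Ngp and S100a8. Csf3, Car2, Alas2, Epb42, Klf1, Rhag, Epx, Prg2 and Cdx2 lie outside that rule and were named after their values were seen. The alternatives tried were cyclic loess, centring on receptor genes, the mean of the other 3 pools as baseline, the highest probe set of a symbol, probe sets with several symbols, other fold thresholds, another background family, leaving out members under background and, chosen after the data were seen, the background threshold in place of lower values.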

Additional observations from a re-analysis of the deposited data

How the results depend on the processing

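Cyclic loess and centring each array on receptor genes each moved all 24 ratios of the members to control by less than 1 SD of the receptor genes' ratios. The highest probe set of a symbol could not move them, because each member has 1 probe set. Inclusion of probe sets with several symbols left every member's value as it was, so neither of these settings is a check of the members. All of these settings moved the median of all genes by less than 0.1 on the log2 scale. Against the mean of the other 3 pools in place of control, 15 of 24 ratios moved by more than that SD and none past 1.5-fold changed sign: 5 members were lower with acetate (2 against control) and 6 higher with butyrate (5 against control), 1 was lower with propionate (Ngp, -0.70, where against control it was Mpo), the members' median was -0.73 with acetate and 1.04 with butyrate, and of the 76 neutrophil genes 0 were higher and 9 lower with acetate (1 and 5 against control) 1 higher and 2 lower with propionate (5 and 1 against control) and 10 higher with butyrate (15 against control). At a 1.3-fold threshold 5 members were lower with acetate, 10 of the 76 genes were lower with acetate, and 13 were higher and 4 lower with propionate. At 2-fold, 0 members were lower with propionate and 3 were higher with butyrate. No share of all genes was counted at 1.3-fold or 2-fold, or against the mean of the other 3 pools. Nothing is therefore read from those counts. With keratin-associated, beta-defensin and taste receptor genes as background, whose 95th percentile was 5.33 to 5.54, 1 member was above background with acetate, 3 with propionate, 4 in control and 6 with butyrate, against 5, 6, 6 and 8, and Camp and Mmp8 were above it in no pool. In each pool 50.1% to 52.6% of all genes were above the background of that second family. Cxcr2 and Mmp9 were above it in no pool, and Elane with butyrate only (5.64). Leaving out members under background on both arrays of a comparison changed no count, and it could change none. All 8 members were above background with butyrate. With acetate and propionate only Camp and Mmp8 were left out, and neither had passed 1.5-fold there. With the background threshold in place of lower values, an alternative chosen after seeing the data, 4 members were higher with butyrate (5 as measured) and the other 5 counts of members against control were the same. No paired analysis was possible because each group is 1 pool. Levels close to the receptor genes limit Camp and Mmp8 in 3 pools and Mpo with acetate.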
